A study of Homo sapiens with 24 samples.

Results

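The 33 genes described here encode lysosomal enzymes, lysosomal membrane proteins, subunits of the lysosomal proton pump, the transcription factors that drive lysosome biogenesis, and the autophagy receptor SQSTM1. They were chosen by gene name, with earlier results of these data known, and all 33 were found among the 57773 genes of the expression table. HEXA, which encodes the alpha subunit of beta-hexosaminidase A, was the gene that marked the set. All 33 passed the filter on low values and were among the 16994 genes tested.

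RNA was measured in SKOV3.ip1, an established human ovarian carcinoma cell line. Each of 4 RNA-binding proteins that act in splicing (RBFOX2, hnRNPC, hnRNPM and SRSF1) was depleted with 2 siRNAs given at 100 nM with Lipofectamine 2000, and RNA was taken 72 h after transfection. Mock libraries received Lipofectamine without any siRNA, so a response to an siRNA of any sequence cannot be told apart from a response to the loss of the protein in 1 siRNA alone. The libraries were made by TGIRT-seq, in which a thermostable bacterial group II intron enzyme copies the RNA, so that structured small RNAs are read well beside messenger RNA. The 24 libraries formed 12 groups of 2, namely 8 siRNA groups and 4 mock sets, and the labels call the 2 libraries of a group biological replicates. The labels tie each mock set to its siRNAs. The set with replicate numbers 4 and 5 (mock n4/n5) served both RBFOX2 siRNAs. The oct set served both hnRNPC siRNAs and hnRNPM siRNA_1. The jan set served hnRNPM siRNA_3 and SRSF1 siRNA_3, and the nov set served SRSF1 siRNA_1. Comparisons that use the same mock libraries are therefore not independent of each other. All groups share 1 cell line, and the proportion of cells that took up the siRNA is not given in the sources used here.

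Lysosomes are acidic organelles in which hydrolases break down proteins, glycans, lipids and nucleic acids delivered by endocytosis and autophagy. A vacuolar proton pump keeps the lumen acidic, heavily glycosylated membrane proteins such as LAMP1 and LAMP2 line the inner face, and transporters and channels return breakdown products and ions to the cytosol. TFEB, TFE3 and MITF are related transcription factors that enter the nucleus when nutrients are scarce and bind a DNA element, the CLEAR element, near many lysosomal genes. Loss of single hydrolases causes storage disorders, such as Tay-Sachs disease with HEXA and Pompe disease with GAA.

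Levels are given as scaled TPM, which is the deposited TPM (a length-corrected share of all transcripts in the library) divided by a library factor so that the typical gene is equal across libraries. A change is the difference of log2(scaled TPM + 1) between siRNA and mock libraries, given with the standard error (SE) from a limma model of all 24 libraries. A gene was called for a protein when the Benjamini-Hochberg adjusted p over all 16994 genes was under 0.05 and both siRNAs moved it in the same direction. Counts at an unadjusted p under 0.05 are given without the share of all genes at that threshold, so they do not set the listed genes apart. The library factors ran from 0.656 to 1.40, and small structured RNAs took from 62.5% to 78.4% of the TPM of a library. The number of reads is unknown, since the table holds TPM. From 12637 to 15734 genes reached 1 TPM in a library, and 0 of 276 pairs of libraries were identical. The targeted genes fell to 32.7% (RBFOX2), 29.3% (HNRNPC), 28.1% (HNRNPM) and 22.4% (SRSF1) of mock on this scale. Epithelial markers were present, with KRT8, KRT18, KRT19, EPCAM, ERBB2 and PAX8 at 19.8 scaled TPM or more in every library, CDH1 between 1.84 and 4.60, and MUC16 at 0.0152 or below. Of the markers of leukocytes, macrophages, fibroblasts and endothelium that were looked up, the highest value in any library was 0.685, for LUM. The macrophage markers CD14, CSF1R, CD163 and MARCO stayed at 0.153 or below.

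The 33 genes differed widely in level. PSAP, the precursor of the saposins that assist sphingolipid hydrolases, was highest, with a median of 621 scaled TPM over the 8 mock libraries. CD63, a tetraspanin of late endosomes and lysosomes, followed at 327, SQSTM1 at 193 and the aspartic protease CTSD at 119. LAMP1 and LAMP2 stood at 69.6 and 67.0, and their ranges over the mock libraries overlapped. HEXA ranked 18th of 33 with a mock median of 11.4 and a mock range from 10.2 to 12.7. The transcription factors were low, with TFE3 at 9.99, MITF at 4.64 and TFEB at 3.23. The calcium channel MCOLN1 was lowest at 0.838. Together the 33 genes summed to between 1601 scaled TPM, in a jan mock library, and 2326, in a library of RBFOX2 siRNA_2. The sum ran from 1124 to 1467 without PSAP.

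**Figure D1:**
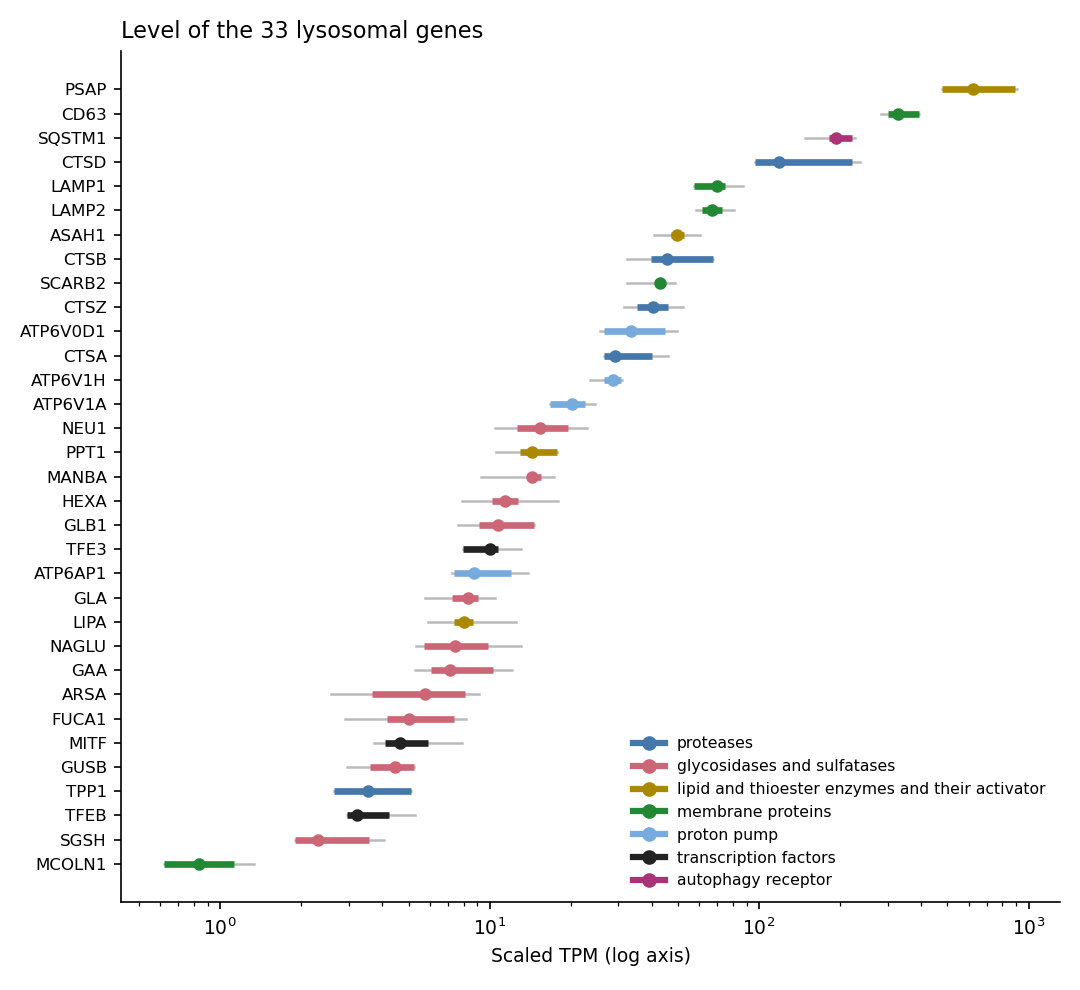
Level of each of the 33 genes in scaled TPM on a log axis, ordered by the median of the 8 mock libraries. Points are mock medians, thick bars the mock range and thin grey bars the range over all 24 libraries; PSAP at 621 and MCOLN1 at 0.838 are the ends of the order.

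Between the 4 mock sets 0 of the 33 genes were called in limma's moderated F test, against 5.53% of all tested genes, with 11 at an unadjusted p under 0.05. The smallest adjusted p was 0.0560, for GUSB (beta-glucuronidase), and 0.0677 and 0.0830 followed for NAGLU and LAMP1. LAMP1 was at 57.6 and 57.6 scaled TPM in the jan set, below each of the other 6 mock libraries, which ran from 64.7 to 74.8. Without a single one of 4 libraries (either replicate of hnRNPC siRNA_3, nov replicate 2 or oct replicate 3), 1 of the 33 genes passed this test. More of the 33 passed with the replicate number as a block or with TPM as deposited, as given at the end.

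Promoter windows were examined for the CLEAR element, because it is the sequence through which TFEB, TFE3 and MITF are known to reach these genes. RefSeq windows (GRCh38.p14, 250 bases before to 50 bases after a transcription start) were given for 22 of the 33 genes, 37 windows in all. The genes not matched were ARSA, ASAH1, ATP6V1A, ATP6V1H, CTSB, HEXA, LAMP2, MANBA, NAGLU, PSAP and SGSH. The 8 letters TCACGTGA, the core of the CLEAR element, read the same on both strands and contain the E-box CACGTG. They were found in 13.5% of the 37 windows, against 0.98% of all 35116 windows, and the E-box in 21.6% against 7.26%. In 127 windows of further pathway genes, listed below, the shares were 10.2% and 18.9%. Some genes, such as CD63, had several windows. The element is already known near lysosomal genes, so these shares are a description and no test. The core fell in 5 genes, and GAA, LAMP1 and MCOLN1 held 2 copies each, while NEU1, CTSD and CD63 held an E-box without the core. The stretches below show each copy in 30 bases, 5′ to 3′ on the strand of the gene, with the core in capitals and its first base counted from the transcription start.
LAMP1 at -29, chr13:113297199-113297228, plus strand: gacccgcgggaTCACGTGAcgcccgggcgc
LAMP1 at -2, chr13:113297226-113297255, plus strand: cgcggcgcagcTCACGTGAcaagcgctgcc
ATP6V0D1 at -60, chr16:67481199-67481228, minus strand: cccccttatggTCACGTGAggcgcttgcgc
GAA at -77, chr17:80101493-80101522, plus strand: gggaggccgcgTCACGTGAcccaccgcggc
GAA at -32, chr17:80101538-80101567, plus strand: gctcccgccggTCACGTGAcccgcctctgc
MCOLN1 at -42, chr19:7522571-7522600, plus strand: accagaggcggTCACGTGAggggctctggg
MCOLN1 at -15, chr19:7522598-7522627, plus strand: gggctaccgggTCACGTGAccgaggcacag
CTSA at -26, chr20:45891298-45891327, plus strand: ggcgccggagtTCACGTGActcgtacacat

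The whole LAMP1 window is given because LAMP1 was the only one of these 5 genes called for a protein over both siRNAs. It lies at chr13:113296989-113297288 on the plus strand, and every E-box is in capitals, 4 upstream and 2 inside the CLEAR cores.
LAMP1 window: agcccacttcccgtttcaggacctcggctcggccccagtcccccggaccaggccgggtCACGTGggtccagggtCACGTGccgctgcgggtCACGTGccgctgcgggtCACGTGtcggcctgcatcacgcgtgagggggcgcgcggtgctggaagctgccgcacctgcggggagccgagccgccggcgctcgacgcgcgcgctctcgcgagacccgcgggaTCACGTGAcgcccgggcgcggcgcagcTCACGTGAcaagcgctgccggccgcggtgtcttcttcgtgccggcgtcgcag
A match in these letters is a description of the sequence, and binding was not measured.

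Depletion of SRSF1 gave 5 of 33 calls, against 9.37% of all tested genes called in either direction. The 4 that rose were LAMP1, LIPA, FUCA1 and GLB1 (4.36% of all genes were called higher) and the 1 that fell was HEXA (5.01% were called lower). Depletion of hnRNPC gave 3 of 33 calls, against 6.45% of all genes: LIPA rose (2.11% called higher) and PPT1 and MANBA fell (4.34% called lower). Depletion of hnRNPM gave 1 call, HEXA, which rose, against 1.04% of all genes. Depletion of RBFOX2 gave 0 calls by limma, against 0.112% of all genes, with 7 of the 33 at an unadjusted p under 0.05. With the replicate number as a block the count was higher for each protein, as given at the end. On the log2 scale the 33 genes had a median change of 0.05 after SRSF1, 0.06 after hnRNPM, 0.04 after hnRNPC and 0.03 after RBFOX2 depletion. The medians of all tested genes were -0.00, -0.00, -0.01 and 0.00 in the same order. In these bulk libraries, fewer cells with a transcript and less of the transcript per cell cannot be told apart.

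**Figure D2:**
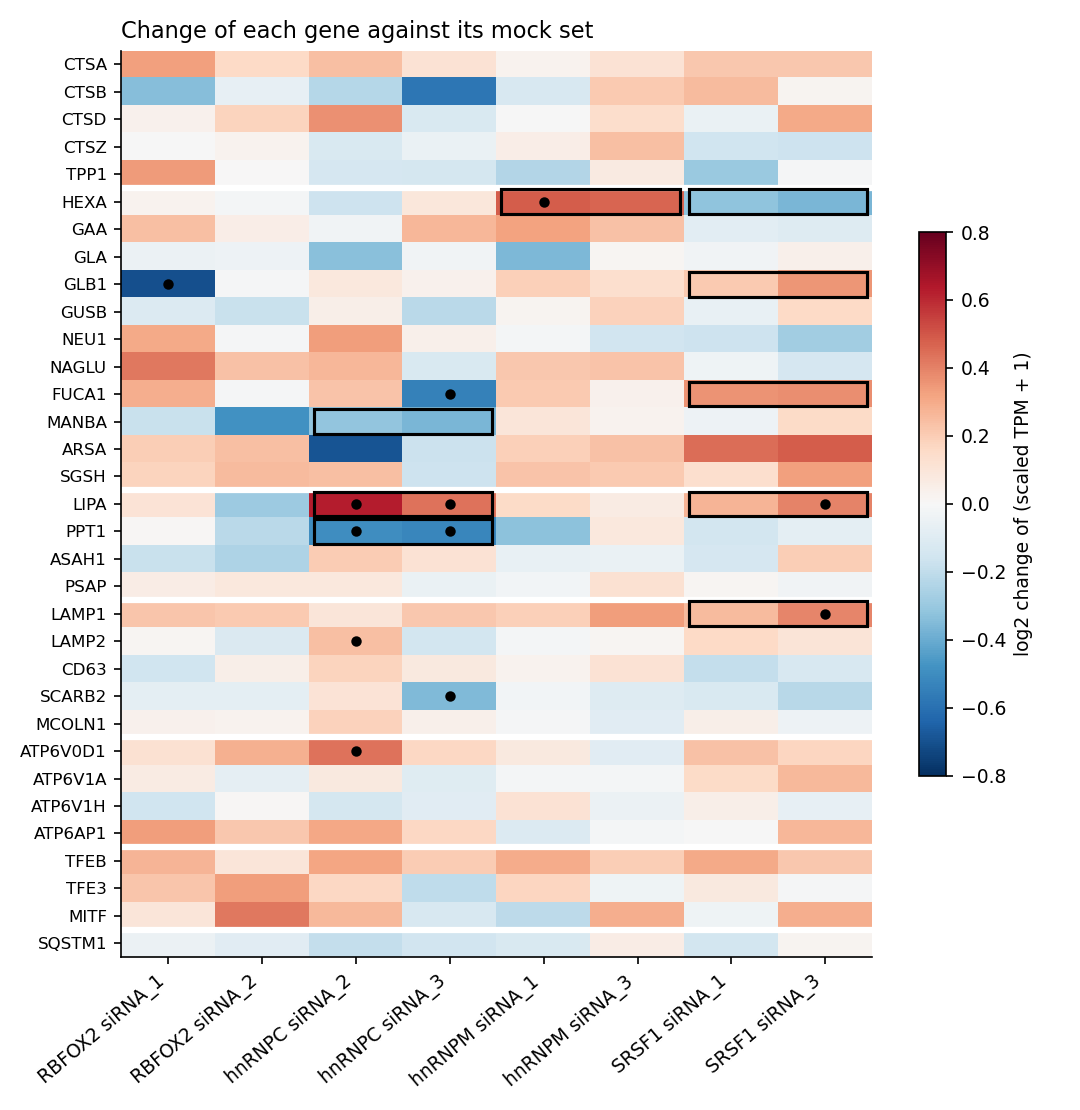
Log2 change of (scaled TPM + 1) of each of the 33 genes (rows, grouped by role) against its mock set for each of the 8 siRNAs (columns), from blue (lower) to red (higher). Black dots mark genes called for a single siRNA and boxes those called for a protein; HEXA is red for both hnRNPM siRNAs and blue for both SRSF1 siRNAs.

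Among the 11 glycosidases and sulfatases, HEXA moved in opposite directions after 2 of the depletions. It was at 17.9 and 16.0 scaled TPM with hnRNPM siRNA_1, against 12.7 and 11.0 in the oct mocks. With hnRNPM siRNA_3 it was at 14.3 and 16.2, against 10.2 and 11.3 in the jan mocks. All 4 hnRNPM libraries lay above all 8 mock libraries of the series. The change was 0.48 ± 0.07 (SE, adjusted p = 0.00183), 1.39-fold of mock on this scale, and it was nearly equal for the siRNAs, 0.48 and 0.47. After SRSF1 depletion HEXA was at 7.91 and 8.26 with siRNA_3, in the same jan set, and at 8.79 and 8.92 with siRNA_1, against 11.6 and 11.1 in the nov mocks. All 4 SRSF1 libraries lay below all 8 mock libraries. The change was -0.34 ± 0.07 (SE, adjusted p = 0.00542), with -0.32 for siRNA_1 and -0.37 for siRNA_3. RBFOX2 and hnRNPC left HEXA between 9.37 and 13.1 scaled TPM, with changes of 0.01 ± 0.08 (SE, adjusted p = 0.99) and -0.04 ± 0.08 (SE, adjusted p = 0.856).

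**Figure D3:**
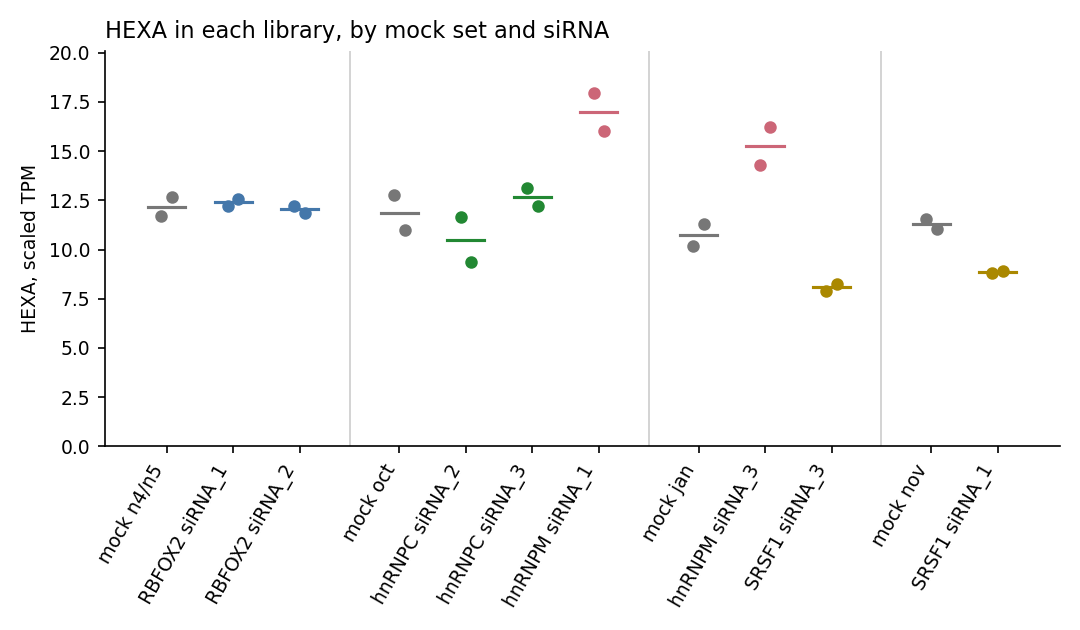
HEXA in scaled TPM in each of the 24 libraries, arranged by mock set and separated by grey lines; points are libraries and bars group means of 2. The hnRNPM libraries lie between 14.3 and 17.9 and the SRSF1 libraries between 7.91 and 8.92, on either side of the mock libraries.

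The effects on HEXA were also set against those of the other proteins. The mean of the other 3 includes SRSF1 for hnRNPM and hnRNPM for SRSF1. The opposite effects therefore enlarged both contrasts, which are not separate tests. Its change after hnRNPM depletion exceeded the mean of the other 3 proteins by 0.60 ± 0.07 (SE, adjusted p = 0.000191), and its change after SRSF1 depletion differed from the mean of the other 3 by -0.49 ± 0.08 (SE, adjusted p = 0.00226). The difference between the hnRNPM and SRSF1 effects, a comparison added after these values were seen, was 0.82 ± 0.08 (SE, adjusted p = 4.29e-05), and 2 of the 33 genes, HEXA and CTSZ, passed it, against 7.79% of all genes. Leaving out any 1 library kept the hnRNPM and SRSF1 calls of HEXA and both contrasts with the other proteins. With TPM as deposited, unscaled, the adjusted p rose to 0.410 for hnRNPM and 0.263 for SRSF1, with changes of 0.42 and -0.34, and that of the contrasts with the other proteins to 0.0861 and 0.179. With only the hnRNPM groups and their mocks in the fit, the hnRNPM adjusted p was 0.101.
HEXA shares 1273 exon bases with an antisense transcript, AC009690.2, at a median of 0.481 TPM, and 364 with HEXA-AS1 at 0.125, against 11.3 TPM for HEXA itself. On the same strand, HEXA shares 617 exon bases with AC009690.1, annotated as protein-coding, at 0.0428 TPM. Whether strand was used in the counting is not given in the sources used here.

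GLB1 and FUCA1, the beta-galactosidase and the alpha-L-fucosidase of the lysosome, rose after SRSF1 depletion. GLB1 was at 11.3 and 12.4 scaled TPM with siRNA_1, against 10.5 and 9.76 in the nov mocks. With siRNA_3 it was at 11.8 and 13.8, against 9.12 and 10.5 in the jan mocks, a change over both siRNAs of 0.28 ± 0.08 (SE, adjusted p = 0.0299). FUCA1 was at 5.94 and 6.05 with siRNA_1, against 4.58 and 4.34, and at 6.20 and 7.42 with siRNA_3, against 4.89 and 5.13, a change of 0.37 ± 0.09 (SE, adjusted p = 0.0217). For both genes the 4 siRNA libraries lay above their own mock libraries, but not above all mock libraries of the series. In the mock n4/n5 set GLB1 was at 11.9 and 14.7 and FUCA1 at 5.65 and 7.41. Both calls were close to the threshold. The GLB1 call was lost without jan replicate 1, either nov replicate, SRSF1 siRNA_1 replicate 2 or SRSF1 siRNA_3 replicate 2, with an adjusted p of up to 0.133. The FUCA1 call held without nov replicate 1 or SRSF1 siRNA_3 replicate 1 and was lost without any other 1 of the 8 libraries, with an adjusted p of up to 0.0953. Neither call held with TPM as deposited (adjusted p = 0.351 for GLB1 and 0.219 for FUCA1) or without a filter on low values (0.0667 and 0.0565), and with all 8 mock libraries as control the GLB1 change was 0.15 (adjusted p = 0.143). With only the SRSF1 groups and their mocks in the fit the GLB1 adjusted p was 0.0733. The count of 5 genes called after SRSF1 depletion fell to 3 without jan replicate 1, nov replicate 2 or SRSF1 siRNA_1 replicate 2.

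MANBA, the beta-mannosidase, fell after hnRNPC depletion. It was at 12.5 and 9.91 scaled TPM with siRNA_2 and 11.3 and 10.3 with siRNA_3, against 14.4 and 13.9 in the oct mocks. The 4 values lay below both mocks, and the change was -0.34 ± 0.09 (SE, adjusted p = 0.0435). The call held without hnRNPC siRNA_2 replicate 1 and was lost without each of the other 5 libraries of the comparison, with an adjusted p of up to 0.184. It was lost in 7 of 13 alternative settings, among them correction for GC content, at an adjusted p of 0.148. After RBFOX2 depletion MANBA was at 12.9 and 13.3 with siRNA_1 and 9.25 and 11.6 with siRNA_2, against 14.4 and 15.5 in its mocks, and the change of -0.33 ± 0.09 (SE, adjusted p = 0.163) did not pass.

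The remaining 7 glycosidases and sulfatases (GAA, GLA, GUSB, NEU1, NAGLU, ARSA and SGSH) were called in none of the 4 protein comparisons by limma. ARSA, the arylsulfatase that degrades sulfatides, had the widest range of the 33 genes, from 2.58 to 9.11 scaled TPM, 3.53-fold. Its change after SRSF1 depletion, 0.47 ± 0.18 (SE, adjusted p = 0.131), was the highest of the 33 in that comparison but did not pass, with 6.54 and 6.25 for siRNA_1 against 5.34 and 3.65 in the nov mocks. After hnRNPC depletion its 2 libraries with siRNA_2 were at 5.85 and 2.58, a wider spread than that of the oct mocks, at 7.84 and 6.24.

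Among the enzymes of lipids and thioesters, LIPA and PPT1 moved in opposite directions after hnRNPC depletion. LIPA, the acid lipase that hydrolyses cholesteryl esters and triglycerides, was at 12.5 and 12.2 scaled TPM with siRNA_2 and 10.6 and 10.8 with siRNA_3, against 7.43 and 7.83 in the oct mocks. The 4 libraries were above every mock library of the series, and the change was 0.53 ± 0.08 (SE, adjusted p = 0.00164). PPT1, which removes palmitate from proteins, was at 11.6 and 11.3 with siRNA_2 and 11.9 and 10.5 with siRNA_3, against 17.8 and 15.3, with a change of -0.51 ± 0.08 (SE, adjusted p = 0.00134). The PPT1 values lay below every mock library of the series. The oct mocks were the highest PPT1 mocks, and those of the other sets ran from 13.0 to 14.8, so the size of the change depends on the oct set. With hnRNPM siRNA_1, which has the same oct mocks, PPT1 was at 13.4 and 12.5. LIPA also rose after SRSF1 depletion, at 9.45 and 9.98 with siRNA_1 against 8.38 and 7.39 in the nov mocks, and 10.5 and 11.0 with siRNA_3 against 7.42 and 8.45 in the jan mocks. That change was 0.33 ± 0.07 (SE, adjusted p = 0.00593), so that LIPA was the only gene of the 33 called higher after 2 depletions.

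These 3 calls were kept without any 1 library. With TPM as deposited, LIPA did not pass (adjusted p = 0.146 for hnRNPC and 0.143 for SRSF1), and with only the hnRNPC groups and their mocks in the fit neither LIPA (0.0735) nor PPT1 (0.127) did. PPT1 shares 1189 exon bases with CAP1 on the opposite strand, and CAP1 was more abundant, at a median of 55.5 TPM against 13.3. The change of CAP1 after hnRNPC depletion was 0.20 ± 0.07 (SE, adjusted p = 0.0983), opposite in sign to that of PPT1. LIPA shares 65 exon bases with IFIT2 and 135 with the antisense transcript AL353751.1, both on the opposite strand, at medians of 1.44 and 1.33 TPM against 8.88 for LIPA. After SRSF1 depletion, IFIT2 changed by 0.34 ± 0.09 (SE, adjusted p = 0.0262) and AL353751.1 by 0.55 ± 0.12 (SE, adjusted p = 0.00791). After hnRNPC depletion neither was called, with values of 0.22 ± 0.11 (SE, adjusted p = 0.264) and -0.23 ± 0.14 (SE, adjusted p = 0.408). The part of these neighbours in the values of LIPA and PPT1 was not tested. ASAH1, the acid ceramidase, and PSAP were called in none of the 4 comparisons, with values between -0.21 and 0.16 for ASAH1 and between -0.00 and 0.07 for PSAP.

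The 5 proteases, CTSA, CTSB, CTSD, CTSZ and TPP1, gave 0 calls by limma in the 4 protein comparisons, with 0 to 1 of them at an unadjusted p under 0.05 in each. CTSA, the serine carboxypeptidase that also shields GLB1 and NEU1, was above its own mocks in all 4 SRSF1 libraries, with a change of 0.22 ± 0.15 (SE, adjusted p = 0.438). CTSZ, a cysteine carboxypeptidase, differed in sign between hnRNPM, 0.15, and SRSF1, -0.16. It was at 52.2 and 51.2 scaled TPM with hnRNPM siRNA_3 and 39.7 and 37.9 with SRSF1 siRNA_3 in the jan set, whose mocks were at 45.8 and 41.4. The other hnRNPM siRNA gave 36.9 and 41.5, against 39.1 and 36.4 in the oct mocks, so that its values were not clear of the mocks. The direct difference of the hnRNPM and SRSF1 effects was 0.31 ± 0.07 (SE, adjusted p = 0.0156), in the comparison added after the values were seen.

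Of the 5 membrane proteins, LAMP1 rose after SRSF1 depletion. It was at 87.3 and 85.0 scaled TPM with siRNA_1, against 74.8 and 69.6 in the nov mocks, and at 73.4 and 78.2 with siRNA_3, against 57.6 and 57.6 in the jan mocks. The change was 0.32 ± 0.06 (SE, adjusted p = 0.00353), and it was kept without any 1 library but not with TPM as deposited (adjusted p = 0.259). In all 4 protein comparisons LAMP1 was higher in every siRNA library than in that library's own mocks, and the other changes, for RBFOX2 0.21 ± 0.07 (SE, adjusted p = 0.253), for hnRNPC 0.16 ± 0.07 (SE, adjusted p = 0.241) and for hnRNPM 0.26 ± 0.06 (SE, adjusted p = 0.0509), did not pass. The hnRNPM value passed in 7 of 13 alternative settings and without hnRNPM siRNA_3 replicate 1 (adjusted p = 0.0464), where 2 genes were called after hnRNPM depletion instead of 1. LAMP1 levels after SRSF1 siRNA_3, 73.4 and 78.2, overlapped the nov mocks, and the jan mocks were the lowest of the series. LAMP2, which also takes part in chaperone-mediated autophagy, CD63, SCARB2, the carrier of glucocerebrosidase to the lysosome, and MCOLN1 were called in none of the protein comparisons.

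**Figure D4:**
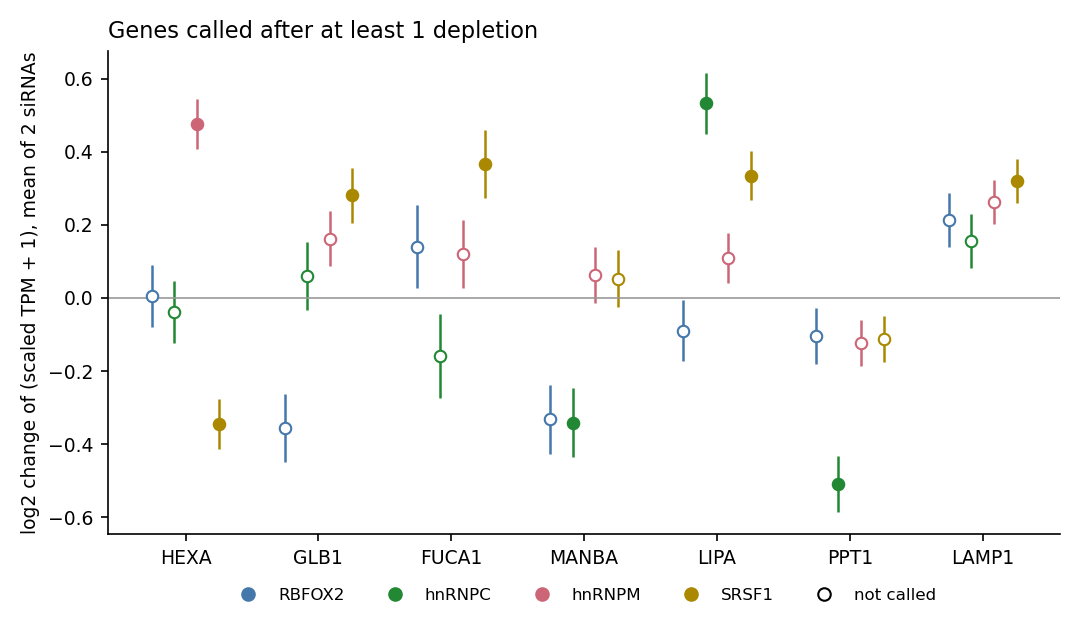
Log2 change of (scaled TPM + 1), as the mean of 2 siRNAs with SE bars, after each of the 4 depletions for the 7 genes called at least once; filled points are called and open points are not. HEXA is the gene with filled points on both sides of 0, at 0.48 and -0.34.

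The 4 proton pump subunits gave 0 calls by limma after any of the 4 depletions, and at most 2 of them reached an unadjusted p under 0.05. ATP6V0D1, of the membrane sector, and ATP6V1A, the catalytic subunit, were above their own mocks in all 4 SRSF1 libraries, with changes of 0.20 ± 0.09 (SE, adjusted p = 0.187) and 0.21 ± 0.06 (SE, adjusted p = 0.0537). ATP6V1H, a regulatory subunit of the cytosolic sector, had the narrowest range of the 33 genes, from 23.5 to 31.0 scaled TPM, 1.32-fold.

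TFEB, TFE3 and MITF gave 0 calls by limma after any of the 4 depletions. The log2 difference of TFEB from mock was 0.18 after RBFOX2, 0.26 after hnRNPC, 0.25 after hnRNPM and 0.26 after SRSF1 depletion, with adjusted p of 0.54, 0.176, 0.272 and 0.0775. After hnRNPC, hnRNPM and SRSF1 depletion every siRNA library lay above its own mocks. For SRSF1 these were 4.19 and 4.22 scaled TPM with siRNA_1 and 4.14 and 3.45 with siRNA_3, against 3.47 and 2.96 in the nov and 3.15 and 3.10 in the jan mocks. The hnRNPC and hnRNPM comparisons share the oct mocks, and the hnRNPM and SRSF1 comparisons the jan mocks. These are levels of messenger RNA, and the activity of these factors depends on phosphorylation and on their place in the cell, which were not measured. After RBFOX2 depletion the difference was 0.28 ± 0.09 (SE, adjusted p = 0.201) for TFE3 and 0.26 ± 0.11 (SE, adjusted p = 0.342) for MITF, neither of which passed. SQSTM1, which carries ubiquitinated cargo into autophagosomes, had differences from -0.17 to -0.03 over the 4 comparisons, none of them called.

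The separation of siRNA from mock libraries was counted for each protein as the number of genes whose 4 siRNA libraries all lay on the same side of their own mocks. After SRSF1 depletion 15 of the 33 genes (45.5%) were so separated, against 22.6% of all tested genes, with 11 higher (11.4% of all) and 4 lower (11.2% of all). The higher genes were CTSA, GLB1, FUCA1, ARSA, SGSH, LIPA, LAMP1, LAMP2, ATP6V0D1, ATP6V1A and TFEB, and the lower ones CTSZ, HEXA, NEU1 and SCARB2. After hnRNPM depletion there were 4 genes (12.1%) against 10.2% of all, namely HEXA, NAGLU, LAMP1 and TFEB, each of them higher (4.57% of all were higher). RBFOX2 and hnRNPC gave 7 genes each (21.2%), against 20.6% and 19.7% of all. Counted in either direction, the shares for RBFOX2, hnRNPC and hnRNPM were near those of all genes.

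For single siRNAs, 12 calls were made in the 8 comparisons with the mock sets. With hnRNPC siRNA_2 there were 4 calls, against 13.3% of all genes: LIPA, LAMP2 and ATP6V0D1 rose and PPT1 fell. With hnRNPC siRNA_3 there were also 4, against 2.71% of all genes: LIPA rose and FUCA1, PPT1 and SCARB2 fell. SRSF1 siRNA_3 gave 2, LIPA and LAMP1, which rose, against 3.25%, and SRSF1 siRNA_1 gave 0 by limma, against 2.95%, with 5 genes at an unadjusted p under 0.05. HEXA rose with hnRNPM siRNA_1 (adjusted p = 0.0342), against 0.677% of genes called. With hnRNPM siRNA_3 there were 0 calls by limma, against 0.282%, with 5 genes at an unadjusted p under 0.05 and HEXA at an adjusted p of 0.0729. RBFOX2 siRNA_1 gave 1 call, GLB1, which fell, against 0.488%, and RBFOX2 siRNA_2 gave 0 by limma, against 0.841%, with 9 genes at an unadjusted p under 0.05. With 2 libraries on each side, the calls of LIPA and PPT1 with hnRNPC siRNA_2 were kept without any 1 library and the other 10 were each lost without at least 1. All 12 were lost when only the groups of the comparison and their mocks were fitted, and PPT1 with hnRNPC siRNA_3 was the only 1 kept with TPM as deposited. The hnRNPC siRNA_2 call of ATP6V0D1 and the siRNA_3 calls of LIPA and SCARB2 were lost without either oct mock or either of their own siRNA libraries, and the siRNA_2 call of LAMP2 without any 1 of the 6 libraries. The siRNA_3 call of FUCA1 was lost without oct replicate 1 or either siRNA_3 library, and that of PPT1 without oct replicate 1 or siRNA_3 replicate 3. The SRSF1 siRNA_3 calls of LIPA and LAMP1 were lost without either jan mock or either siRNA_3 library, and the hnRNPM siRNA_1 call of HEXA without oct replicate 3 or either siRNA_1 library. The count of 12 fell to 7 without oct replicate 1 or hnRNPC siRNA_3 replicate 3.

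GLB1 separated the RBFOX2 siRNAs. It was at 7.84 and 7.60 scaled TPM with siRNA_1, against 11.9 and 14.7 in the mocks and 13.2 and 13.0 with siRNA_2. The change with siRNA_1 was -0.70 ± 0.11 (SE, adjusted p = 0.0113), the change with siRNA_2 -0.01 ± 0.11 (SE, adjusted p = 0.983), and the difference between them -0.70 ± 0.11 (SE, adjusted p = 0.0046), the only 1 of 33 genes called there, against 1.51% of all genes. The libraries with siRNA_1 were the lowest GLB1 values of the series. The difference did not pass without either siRNA_1 library or without siRNA_2 replicate 4, with an adjusted p of up to 0.0745, and the call with siRNA_1 alone was lost without either siRNA_1 library or mock replicate 5, with an adjusted p of up to 0.158. With TPM as deposited neither passed, at -0.44 (adjusted p = 0.261) for siRNA_1 and -0.67 (adjusted p = 0.261) for the difference, nor did they with only the RBFOX2 groups and their mocks in the fit (adjusted p = 0.215 and 0.0780).

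The hnRNPC siRNAs differed for 5 of 33 genes, against 11.1% of all genes, and each of the 5 was higher with siRNA_2 than with siRNA_3 (5.63% of all genes were called in that direction). FUCA1 was at 6.30 and 5.70 scaled TPM with siRNA_2 and 3.31 and 2.90 with siRNA_3, against 5.92 and 4.16 in the oct mocks, a difference of 0.77 ± 0.13 (SE, adjusted p = 0.00195). SCARB2 was at 48.9 and 43.6 with siRNA_2 and 34.3 and 32.5 with siRNA_3, against 42.4 and 43.2, a difference of 0.46 ± 0.08 (SE, adjusted p = 0.00236). LAMP2 was at 78.4 and 74.8 with siRNA_2 and 58.5 and 58.2 with siRNA_3, against 65.5 and 63.8, a difference of 0.39 ± 0.08 (SE, adjusted p = 0.00462). For these 3 genes the values with siRNA_2 lay above those with siRNA_3, and the difference passed without any 1 library. With only the hnRNPC groups and their mocks in the fit it did not pass for FUCA1 (adjusted p = 0.113), LAMP2 (0.160) or SCARB2 (0.137), and with TPM as deposited not for LAMP2 (0.0833) or SCARB2 (0.0612). TFE3 was at 11.0 and 12.4 with siRNA_2 and 8.50 and 9.16 with siRNA_3, against 10.3 and 10.4, a difference of 0.37 ± 0.10 (SE, adjusted p = 0.0264). GUSB was at 4.94 and 4.71 with siRNA_2 and 4.02 and 3.70 with siRNA_3, against 4.87 and 4.40, a difference of 0.26 ± 0.08 (SE, adjusted p = 0.0473). The TFE3 difference did not pass without hnRNPC siRNA_2 replicate 3 or either siRNA_3 library (adjusted p up to 0.238), and that of GUSB without any 1 of the 4 siRNA libraries (up to 0.230). It was lost in 5 of 13 alternative settings for TFE3 and in 7 of 13 for GUSB. Pseudogenes named after GUSB are in the table, with GUSBP1 at a median of 9.01 TPM and GUSBP9 at 9.25. Their likeness in sequence and any sharing of reads with GUSB were not tested. The hnRNPM siRNAs differed for 0 of 33 genes by limma, against 0.0412% of all genes, with 2 at an unadjusted p under 0.05, and the SRSF1 siRNAs for 0, against 0.00588%, with 1.

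**Figure D5:**
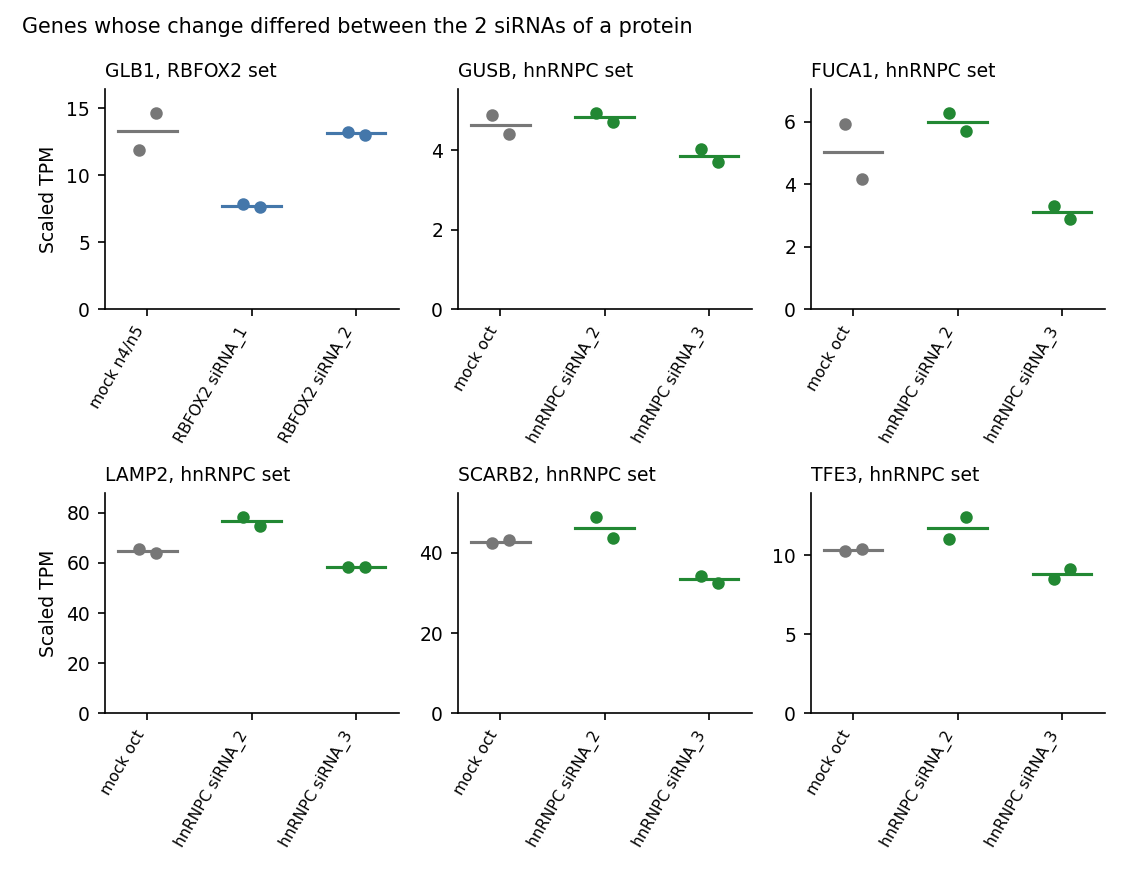
Scaled TPM by library for the 6 genes whose change differed between the 2 siRNAs of a protein; points are libraries and bars group means of 2, with the mock set in grey. GLB1 is low with RBFOX2 siRNA_1, at 7.84 and 7.60, and the other 5 genes are lower with hnRNPC siRNA_3 than with siRNA_2.

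Each protein was also set against the mean of the other 3, with the shared mock libraries carried in the model. Of the 33 genes, hnRNPC differed for LIPA, 0.41 ± 0.09 (SE, adjusted p = 0.0116), and PPT1, -0.40 ± 0.08 (SE, adjusted p = 0.00988), against 5.30% of all genes. Besides HEXA, hnRNPM differed for CTSZ, 0.23 ± 0.06 (SE, adjusted p = 0.0429), against 3.04% of all genes, and SRSF1 for GLB1, 0.33 ± 0.09 (SE, adjusted p = 0.0395), against 7.08%. The CTSZ changes from mock were 0.15 for hnRNPM (adjusted p = 0.347), -0.16 for SRSF1, -0.09 for hnRNPC and 0.01 for RBFOX2. Those of GLB1 were 0.28 for SRSF1, -0.36 for RBFOX2, 0.16 for hnRNPM and 0.06 for hnRNPC. The RBFOX2 value of GLB1 rested on siRNA_1, at -0.70. For RBFOX2 there were 0 calls by limma, against 0.118%, with 5 at an unadjusted p under 0.05. The values of LIPA and PPT1 did not pass without oct replicate 1 (adjusted p = 0.0624 and 0.0764), and without it 3 calls were made over the 4 proteins instead of 6. The CTSZ value passed without 6 and the GLB1 value without 7 of the 24 libraries, each left out in turn, with adjusted p of up to 0.200 and 0.130 without the others. With TPM as deposited the LIPA value was 0.19 (adjusted p = 0.377), that of CTSZ 0.13 (0.743) and that of GLB1 0.33 (0.464), and with all 8 mock libraries as control that of GLB1 was 0.13 (0.118).

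A further 114 genes of the pathway were looked up in 6 lists, of which 109 were tested (GALC, HYAL1, ARSG, ACP5 and CD68 were too low). Calls among these 109 genes were not run under the alternative settings or with libraries left out. How far they hold is therefore not known. After SRSF1 depletion 15 of the 109 rose and 6 fell, 19.3% in all, against 9.37% of all tested genes. Of the 30 other hydrolases tested, 9 rose and 2 fell. CTSC, a dipeptidyl peptidase that activates serine proteases, was at 22.7 ± 2.25 (SD, n = 4) in mock and 34.3 ± 5.63 (SD, n = 4) in siRNA libraries, a change of 0.57 ± 0.08 (SE, adjusted p = 0.000674). The means and SDs of CTSC and, below, RRAGB pool both siRNAs and both the jan and nov mock sets. Those SDs therefore also hold differences between the siRNAs and between the mock sets. HGSNAT, an acetyltransferase of heparan sulfate breakdown, changed by 0.48 ± 0.07 (SE, adjusted p = 0.000341) and the acid sphingomyelinase SMPD1 by 0.46 ± 0.10 (SE, adjusted p = 0.00924). SMPD1 was low, with means of 0.647 scaled TPM in mock and 1.27 in siRNA libraries. SIAE, also among the 9 that rose, had means of 0.766 and 1.09. Both lay near the filter of 1 TPM, which a low gene can pass through the libraries where it is high. Of 18 genes of lysosomal membrane and transport, SLC17A5, the exporter of sialic acid, rose by 0.31 ± 0.06 (SE, adjusted p = 0.00331) and LAPTM4B by 0.28 ± 0.07 (SE, adjusted p = 0.0141), and LAPTM4A changed by -0.28 ± 0.07 (SE, adjusted p = 0.0143). Of 12 further pump subunits, ATP6V0A1 and the accessory ATP6AP2 rose, by 0.33 ± 0.08 (SE, adjusted p = 0.0199) and 0.14 ± 0.04 (SE, adjusted p = 0.0471), and ATP6V1C1 changed by -0.32 ± 0.06 (SE, adjusted p = 0.00182). Of 11 genes of sorting and maturation, M6PR, a mannose 6-phosphate receptor, rose by 0.18 ± 0.05 (SE, adjusted p = 0.0191). Of 19 genes that control TFEB at the lysosome, RRAGB, a Rag GTPase, was at 7.84 ± 0.478 (SD, n = 4) in mock and 11.6 ± 0.739 (SD, n = 4) in siRNA libraries, a change of 0.52 ± 0.07 (SE, adjusted p = 0.000335). Of 19 autophagy genes 0 rose and 2 fell, with changes of -0.34 ± 0.08 (SE, adjusted p = 0.014) for the receptor OPTN and -0.32 ± 0.08 (SE, adjusted p = 0.023) for the tethering subunit VPS11. The median change of the 109 genes was 0.06, and that of the 30 hydrolases 0.12, against -0.00 for all tested genes.

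After hnRNPC depletion 2 of the 109 genes rose and 10 fell, 11.0% in all, against 6.45% of all tested genes. The autophagy receptor OPTN was at 47.4 ± 3.72 (SD, n = 2) in mock and 30.0 ± 5.59 (SD, n = 4) in siRNA libraries, a change of -0.66 ± 0.10 (SE, adjusted p = 0.00111). The siRNA libraries pool both siRNAs, so their SD also holds the difference between the siRNAs. BECN1, of the complex that starts autophagosomes, changed by -0.36 ± 0.06 (SE, adjusted p = 0.00347) and the receptor CALCOCO2 by -0.26 ± 0.07 (SE, adjusted p = 0.0295). The membrane protein LAPTM4A changed by -0.51 ± 0.08 (SE, adjusted p = 0.00173), the kinase MTOR, which holds TFEB in the cytosol, by -0.37 ± 0.08 (SE, adjusted p = 0.00875), and GNPTG and SUMF2, which act in enzyme maturation, by -0.48 ± 0.13 (SE, adjusted p = 0.0406) and -0.29 ± 0.06 (SE, adjusted p = 0.0128). Among the hydrolases RNASET2 changed by -0.53 ± 0.13 (SE, adjusted p = 0.0286), CPVL by -0.34 ± 0.06 (SE, adjusted p = 0.0044) and SMPD1 by 0.46 ± 0.12 (SE, adjusted p = 0.0381). SMPD1 was again low, with means of 1.01 scaled TPM in mock and 1.76 in siRNA libraries. The pump subunit ATP6V1B2 rose by 0.25 ± 0.06 (SE, adjusted p = 0.0296). Both hnRNPC siRNAs moved each called gene in the same direction, but for some genes to unequal extents. With siRNA_2 and siRNA_3 the changes were -0.26 and -0.75 for LAPTM4A and -0.56 and -0.18 for MTOR. For CPVL they were -0.57 and -0.12, and for OPTN -0.87 and -0.45. The other called genes had smaller gaps between the siRNAs. After hnRNPM and RBFOX2 depletion 0 of the 109 genes were called by limma, against 1.04% and 0.112% of all tested genes. At an unadjusted p under 0.05 there were 14 and 13 of the 109, and the share of all genes there is not given.

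The 33 genes had a median GC content of 52.8%, against 47.6% for all tested protein-coding genes, and ran from 37.3% for ASAH1 to 66.0% for ARSA. Libraries differed in how levels varied with GC content, with rank correlations over 11270 genes from -0.593 to 0.579 between libraries. Within the 12 groups, 16 of the 33 genes (48.5%) were higher in the library with the higher correlation in at least 10 groups, against 10.6% of all tested genes. PSAP was higher there in 11 groups and CTSD in 10, and their replicate pairs were wide, such as 188 and 117 scaled TPM for CTSD and 793 and 500.5 for PSAP in the oct mocks. HEXA, at 47.0% GC, was higher there in 10 groups, and LIPA, at 42.8%, in 5. Change and GC content had a rank correlation over the 33 genes of 0.556 after RBFOX2 depletion (0.431 over 11270 genes), 0.381 after hnRNPM (0.399), 0.179 after hnRNPC (0.229) and 0.0461 after SRSF1 depletion (0.0917). After correction for GC content the HEXA changes were 0.48 (adjusted p = 0.00267) for hnRNPM and -0.33 (adjusted p = 0.00791) for SRSF1, the hnRNPC changes 0.56 for LIPA and -0.51 for PPT1, and the SRSF1 change of LAMP1 0.32, each still called. Of the 33 single-gene calls, 4 were lost under this correction, among them MANBA after hnRNPC depletion and LAMP2 with hnRNPC siRNA_2.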

How the data were processed

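TGIRT-seq gave gene-level values for 24 libraries, which the authors deposited as TPM in 1 table. Per the submitters' processing notes, the build was hg19 and the tools were TopHat2 2.0.9 with Bowtie2 2.1.0.0, Trimmomatic 0.38, SAMtools 0.1.19.0 and FastQC 0.10.1. The counting tool and any use of strand are not given in the sources used here, and TPM keeps no read depth, so no counting interval is given. From these values, each library was scaled by the median of its ratios to the geometric mean over the 22727 genes above 0 in all libraries. A gene was kept if 2 or more libraries had it at 1 TPM or above, and log2(scaled TPM + 1) was fitted with limma 3.58.1 in R 4.3.3 (trended moderated variance, 12 residual and 3.04 prior degrees of freedom, 12 groups without covariates, Benjamini-Hochberg adjustment over all tested genes). Fold changes on this scale understate the change of genes near 1 TPM. P-values measure the spread between libraries labelled biological replicates. The fit was checked on simulated data, but the outcome is not given here and lends no support to the calls.

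The rule named HEXA, each of the 33 genes called for a protein or differing between siRNAs or mock sets, TFEB, TFE3, MITF and SQSTM1, and up to 3 called genes of each further list with the largest changes. ARSA, ASAH1, CTSA, CTSZ, PSAP, CTSD and the pump subunits were named in addition, after their values were seen. The 33 genes and all lists were chosen with earlier results of these data known. The direct difference between hnRNPM and SRSF1 effects was added after seeing the data. Gene overlaps were read by name from GENCODE 29, and promoters from RefSeq on GRCh38.p14. Alternatives covered scaling, pseudocount, filter, GC content, replicate number, variance model, controls, the samples fitted and leaving out each library.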

Additional observations from a re-analysis of the deposited data

Results flagged for a closer look

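These are the genes of the set whose response differed between 2 siRNAs of a protein, or between a protein and the mean of the other 3, by a limma test of the difference itself. For GLB1 the effects of RBFOX2 siRNA_1 and siRNA_2 differed by -0.70 ± 0.11 (SE, adjusted p = 0.0046). Between hnRNPC siRNA_2 and siRNA_3 the effects differed by 0.77 ± 0.13 (SE, adjusted p = 0.00195) for FUCA1, 0.46 ± 0.08 (SE, adjusted p = 0.00236) for SCARB2 and 0.39 ± 0.08 (SE, adjusted p = 0.00462) for LAMP2. Smaller differences there were 0.37 ± 0.10 (SE, adjusted p = 0.0264) for TFE3 and 0.26 ± 0.08 (SE, adjusted p = 0.0473) for GUSB. Against the mean of the other 3 proteins, HEXA differed by 0.60 ± 0.07 (SE, adjusted p = 0.000191) for hnRNPM and by -0.49 ± 0.08 (SE, adjusted p = 0.00226) for SRSF1. The effect of hnRNPC differed from that mean for LIPA, by 0.41 ± 0.09 (SE, adjusted p = 0.0116), and for PPT1, by -0.40 ± 0.08 (SE, adjusted p = 0.00988). The hnRNPC effect on PPT1 was taken against the oct mocks, the highest PPT1 mocks of the series. CTSZ differed by 0.23 ± 0.06 (SE, adjusted p = 0.0429) for hnRNPM, and GLB1 by 0.33 ± 0.09 (SE, adjusted p = 0.0395) for SRSF1. The contrasts with the other 3 proteins share mock libraries in part, and each also depends on the effects of the other proteins. For HEXA the opposite effects of hnRNPM and SRSF1 enlarged both contrasts. The CTSZ contrast includes the opposite change after SRSF1 depletion, -0.16, and the GLB1 contrast includes the fall with RBFOX2 siRNA_1.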

How the results depend on the processing

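Of 33 single-gene calls, 13 were kept without any 1 library, and a called direction reversed in 0 of 76 single-gene results. Each of the 27 calls run under all 13 other settings was lost in at least 1, and of the 6 run under 12 settings, 1 was kept in all of them, PPT1 for hnRNPC against the other proteins. TPM as deposited ended 29 of 33 calls, fitting only the groups of a comparison 23 of 27, and leaving out the filter 12 of 33. The reported counts of called genes were 0 for RBFOX2, 3 for hnRNPC, 1 for hnRNPM, 5 for SRSF1, 12 over single siRNAs, 6 for siRNA differences, 6 against the other proteins and 0 between mock sets. With TPM as deposited, which shifted the median of all genes by 0.21 for RBFOX2 and -0.14 for hnRNPC, the last 7 of these became 1, 0, 0, 1, 1, 2 and 18. With all 8 mock libraries as control, RBFOX2 gave 14, hnRNPC 10, SRSF1 10, single siRNAs 54 and the contrasts with other proteins 38. With only the groups of a comparison fitted, hnRNPC and hnRNPM gave 0. After hnRNPM depletion 2 genes were called with pseudocount 0.1, no filter, a filter at 5 TPM, GC correction or a robust variance model. Without a filter SRSF1 gave 3 and single siRNAs 7. GC correction gave 11 against the other proteins and 1 between mock sets, where scaling to an equal sum with small structured RNAs left out gave 2. Same-numbered libraries of a mock set share no stated source, with correlations of their deviations from 0.0613 to 0.430 (median 0.210, 12 of 13 over 0.1). With the replicate number as a block the counts were 3 for RBFOX2, 5 for hnRNPC, 2 for hnRNPM, 11 for SRSF1, 33 over single siRNAs, 18 for siRNA differences, 19 against other proteins and 11 between mock sets. With the block and GC correction together they were 3, 8, 2, 16, 48, 26, 27 and 12 in that order. Leaving out 1 library gave 0 for RBFOX2, 2 to 4 for hnRNPC, 1 to 2 for hnRNPM, 3 to 6 for SRSF1, 7 to 15 over single siRNAs, 4 to 9 for siRNA differences, 3 to 9 against other proteins and 0 to 1 between mock sets. The shares of all tested genes called under these other settings are not given here, so these counts do not set the 33 genes apart. The cause of these differences in count was not tested. Having 2 libraries a group and no read depth limits what can be detected for low genes such as MCOLN1 and SGSH.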
